A study of Mus musculus with 25 samples.

Results

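The 40 genes described here encode proteins that copy DNA and divide the cell. They are a list of gene names, sorted here by textbook role. The genes of G1/S and replication numbered 18, and those of G2 and mitosis numbered 22. In liver RNA from 25 mice, 36 of the 40 were measured: 17 of the G1/S and replication genes and 19 of the G2 and mitosis genes. The probes of Ccne2 and Cdc25c were not well above background on any array, the Ttk probe was above it on 1 array, and the Aurkb probe on 3 arrays, so these 4 genes were not tested.

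The mice were female C57BL/6NcrSlc animals (C57BL/6 in another label), 5 per group, with 1 single-colour Agilent array per liver. Concanavalin A (ConA), a jack bean lectin used to bring on T cell hepatitis in mice, was injected at 10 mg/kg, and BW245C, an agonist of the prostaglandin D2 receptor DP1, was given into the peritoneum at 1 mg/kg 15 min after ConA. The groups were ConA + BW245C 3 hr, ConA + vehicle 3 hr, ConA + BW245C 24 hr, ConA + vehicle 24 hr and untreated, named by the time after ConA at which the liver was taken. All ConA groups had received the lectin, so the comparison of BW245C with vehicle holds ConA on both sides, and the untreated mice are so named in the labels.

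A cell that leaves quiescence makes cyclin D and then cyclin E, and E2F transcription factors switch on the genes of the S phase. Cdc6 and Cdt1 load the Mcm2 to Mcm7 helicase onto replication origins, Mcm10 helps to activate it, the sliding clamp Pcna holds polymerases on DNA, and ribonucleotide reductase, thymidylate synthase and thymidine kinase supply nucleotides. In G2 and mitosis, cyclins A and B with Cdk1, the kinases Plk1 and Aurka, the spindle checkpoint and kinesin motors prepare and separate the chromosomes. Adult hepatocytes are mostly quiescent and can re-enter the cycle after injury, while activated lymphocytes also divide.

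RefSeq promoter windows, each placed around an annotated start on build GRCm38.p6, were matched by symbol for 32 of the 40 members (33 windows, as Mcm7 has 2). That start need not be the outer end of the gene. The span of Cdc6 begins at 98907709 on chromosome 11, and its window lies inside that span. Aurkb, Ccna2, Ccnd1, Ccne2, Cdc25c, Foxm1, Kif20a and Mcm4 had no entry. Each window was searched on both strands for the CHR element (TTTGAA or TTCGAA) and the CCAAT box, both known from promoters of genes of G2 and mitosis, and for an E2F element (TTTCCCGC, TTTCGCGC, TTTGCCGC or TTTGGCGC), known from promoters of the S phase. A CHR match lay in 13 of 17 windows of G2 and mitosis genes (76.5%), in 2 of 16 windows of G1/S and replication genes (12.5%) and in 19.2% of all 32851 windows. CCAAT lay in 15 of 17 (88.2%), 10 of 16 (62.5%) and 37.4% of all, and the E2F letters in 1 of 17 (5.88%), 6 of 16 (37.5%) and 2.26% of all. A match describes the letters only.

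**Figure D1:**
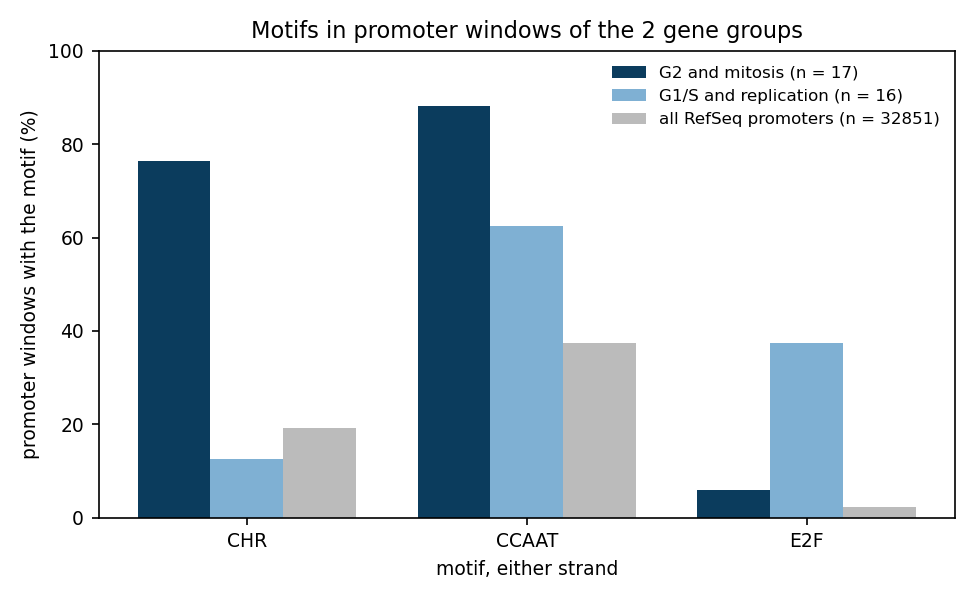
Share of promoter windows (percent, vertical axis) that hold each motif, for 17 windows of G2 and mitosis genes, 16 windows of G1/S and replication genes and all 32851 RefSeq windows. The CHR bar is at 76.5% for G2 and mitosis, and the E2F bar is at 37.5% for G1/S and replication.

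Shown are the windows of 3 mitotic genes with CHR and CCAAT matches, one of which (Ccnf) moved apart from the others, of 2 licensing genes with E2F matches, and of Mcm10 and Tk1, which moved against the other replication genes at 24 hr. They lie at chr7:122159185-122159484 (plus strand) for Plk1, chr9:70421505-70421804 (minus strand) for Ccnb2, chr17:24251360-24251659 (minus strand) for Ccnf, chr1:128359656-128359955 (minus strand) for Mcm6, chr11:98907901-98908200 (plus strand) for Cdc6, chr2:5012742-5013041 (minus strand) for Mcm10 and chr11:117825965-117826264 (minus strand) for Tk1. Each is read 5′ to 3′ on the strand of its gene, and capitals mark motif letters on either strand. Plk1 holds 1 CHR and 1 CCAAT match, Ccnb2 has 2 and 3, and Ccnf has 2 and 2. Mcm6 holds 3 E2F matches, 2 of which overlap, with 2 of CCAAT, Cdc6 has 1 of E2F, Mcm10 has 3 of CCAAT, and the Tk1 window holds none of the 3 motifs.
Plk1: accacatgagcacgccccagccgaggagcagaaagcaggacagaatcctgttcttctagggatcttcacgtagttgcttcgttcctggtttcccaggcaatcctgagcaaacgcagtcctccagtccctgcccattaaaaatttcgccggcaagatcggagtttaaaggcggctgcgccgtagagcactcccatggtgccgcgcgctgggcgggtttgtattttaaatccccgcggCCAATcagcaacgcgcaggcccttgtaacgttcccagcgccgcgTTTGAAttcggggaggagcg
Ccnb2: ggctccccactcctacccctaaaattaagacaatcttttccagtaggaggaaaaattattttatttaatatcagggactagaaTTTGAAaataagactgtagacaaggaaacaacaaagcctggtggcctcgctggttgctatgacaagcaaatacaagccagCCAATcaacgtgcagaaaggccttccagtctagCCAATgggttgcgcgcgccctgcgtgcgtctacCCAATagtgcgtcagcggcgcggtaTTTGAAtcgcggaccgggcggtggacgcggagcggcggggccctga
Ccnf: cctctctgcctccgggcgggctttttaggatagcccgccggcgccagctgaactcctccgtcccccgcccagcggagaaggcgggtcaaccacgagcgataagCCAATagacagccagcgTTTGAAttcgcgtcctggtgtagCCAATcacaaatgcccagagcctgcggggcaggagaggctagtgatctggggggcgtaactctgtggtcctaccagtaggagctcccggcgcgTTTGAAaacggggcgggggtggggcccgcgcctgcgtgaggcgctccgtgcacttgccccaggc
Mcm6: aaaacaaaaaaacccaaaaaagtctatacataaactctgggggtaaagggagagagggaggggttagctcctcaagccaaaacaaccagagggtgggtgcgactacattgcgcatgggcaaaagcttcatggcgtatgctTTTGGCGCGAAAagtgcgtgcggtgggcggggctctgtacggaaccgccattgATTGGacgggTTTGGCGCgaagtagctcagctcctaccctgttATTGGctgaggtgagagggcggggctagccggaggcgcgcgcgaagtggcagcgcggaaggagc
Cdc6: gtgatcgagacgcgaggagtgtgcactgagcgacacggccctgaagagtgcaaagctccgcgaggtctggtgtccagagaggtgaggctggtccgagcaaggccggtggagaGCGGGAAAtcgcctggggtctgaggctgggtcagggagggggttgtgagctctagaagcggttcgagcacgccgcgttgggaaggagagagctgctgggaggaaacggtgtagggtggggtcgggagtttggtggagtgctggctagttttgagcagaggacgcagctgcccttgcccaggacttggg
Mcm10: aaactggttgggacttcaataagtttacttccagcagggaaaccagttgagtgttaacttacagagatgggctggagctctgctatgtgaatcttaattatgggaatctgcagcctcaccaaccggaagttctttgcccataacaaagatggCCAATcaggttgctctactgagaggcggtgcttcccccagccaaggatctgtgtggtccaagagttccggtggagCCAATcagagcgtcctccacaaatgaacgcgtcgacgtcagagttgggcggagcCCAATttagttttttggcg
Tk1: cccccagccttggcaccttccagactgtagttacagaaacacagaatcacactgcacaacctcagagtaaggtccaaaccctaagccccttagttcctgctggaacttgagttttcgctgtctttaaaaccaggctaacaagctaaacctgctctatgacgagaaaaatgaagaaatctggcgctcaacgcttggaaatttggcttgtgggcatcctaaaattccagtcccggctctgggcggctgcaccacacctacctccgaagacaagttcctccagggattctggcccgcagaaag

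Values below are log2 levels, the log2 of a probe's processed signal minus that of the 75th percentile of its array, so 0 is a bright probe and a negative level can still be well above background. Mice are listed in the order 1 to 5, a difference is on the same log2 scale with its standard error from limma, and a call means an adjusted p (Benjamini-Hochberg over 15104 genes) under 0.05. Between 52.2% and 61.6% of the probes of an array were well above background and none was saturated. Each of the 9 hepatocyte markers was above background on at least 1 array of every group. The arrays lay on 5 slides unevenly shared by the groups: 4 untreated arrays were on slide 1, all 5 ConA + BW245C 3 hr arrays on slide 3, and 4 ConA + vehicle 24 hr and 3 ConA + BW245C 24 hr arrays on slide 4. Untreated and ConA + vehicle 24 hr arrays shared no slide, so for that comparison there is a blocked value and no value within a slide. In bulk liver RNA, fewer cells of a type and less RNA per cell cannot be told apart.

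Taken per mouse, the median level of the 19 measured G2 and mitosis genes, relative to its mean in untreated livers, lay between 2.17 and 2.81 in ConA + BW245C 24 hr livers, between 2.08 and 2.84 in ConA + vehicle 24 hr livers and between -0.30 and 0.37 in untreated livers. At 3 hr it lay between -1.23 and -0.020 with BW245C and between -0.14 and 0.93 with vehicle. The median of the 17 G1/S and replication genes lay between 0.83 and 1.18 in ConA + BW245C 24 hr livers, between 0.98 and 1.40 in ConA + vehicle 24 hr livers and between -0.15 and 0.057 in untreated livers. At 3 hr it lay between -0.58 and -0.24 with BW245C and between -0.74 and -0.23 with vehicle. Both sets thus stood above all untreated mice at 24 hr, the replication set stood below them at 3 hr, and the mitotic set of ConA + vehicle 3 hr livers overlapped them at that time.

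**Figure D2:**
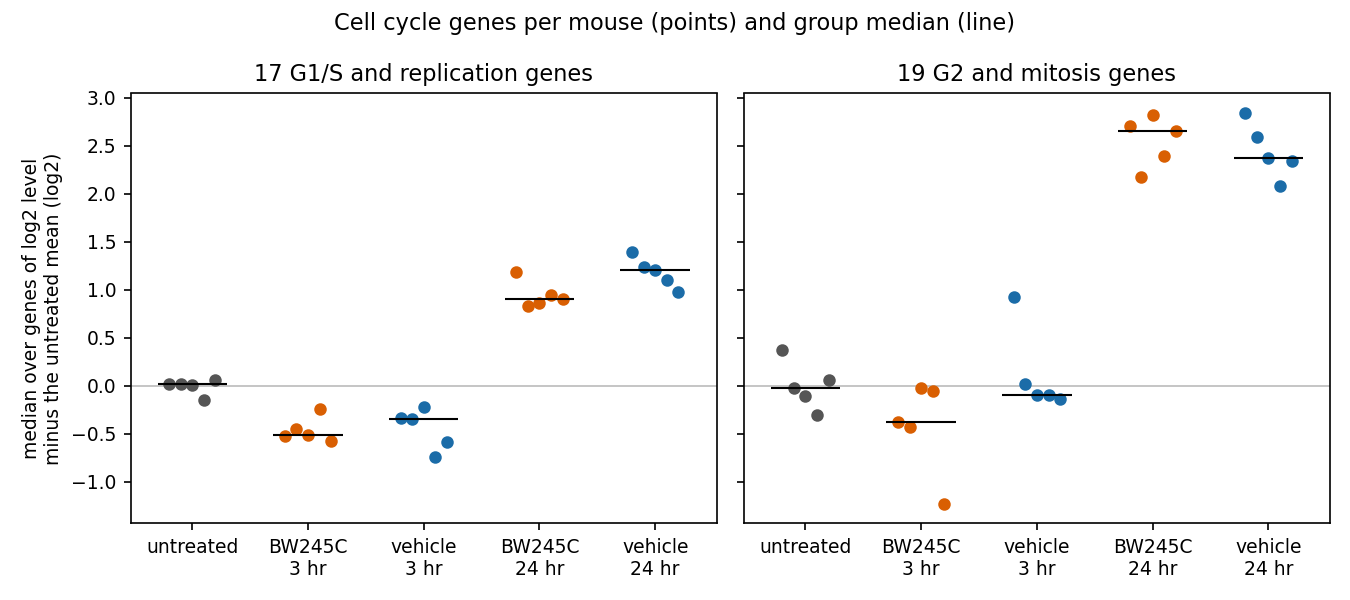
Median log2 level over the measured members of each set in each mouse, relative to the mean of the untreated mice (vertical axis), by group (horizontal axis), with G1/S and replication genes in one panel and G2 and mitosis genes in the other. Points are single mice and lines are group medians. All 10 livers of 24 hr lie above all untreated livers in both panels.

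At 3 hr after ConA with vehicle, replication genes mostly fell relative to untreated livers while a few cell cycle genes rose. Ccne1 and Tyms had the largest increases, Mcm10, Cdt1, E2f1 and Tk1 the largest decreases among the replication genes, and Ccnf the largest decrease of the 36. Of the 17 G1/S and replication genes 4 were called higher and 9 lower (median -0.39), and of the 19 G2 and mitosis genes 4 were higher and 5 lower (median 0.05). Over all genes tested, 24.9% were called higher and 37% lower (62% in either direction), with a median of -0.093. The arrays did not overlap for 15 members, and for 47.4% of all genes.

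Among the licensing genes, Mcm4, a helicase subunit, had levels of 1.75, 1.82, 1.81, 1.48 and 1.45 in ConA + vehicle 3 hr livers, against 0.92, 0.94, 0.92, 0.48 and 0.90 in untreated livers. It rose without overlap (0.83 ± 0.14, adjusted p = 1.28e-05). Cdt1, the licensing factor, had levels of -1.11, -1.88, -1.13, -1.50 and -1.63 in ConA + vehicle 3 hr livers, against 0.057, -0.44, -0.30, -0.74 and -0.32 in untreated livers. All 5 ConA mice were below all untreated mice, and it fell (-1.10 ± 0.15, adjusted p = 8.09e-07). Mcm10 had levels of 0.34, 0.41, 1.08, 0.65 and 0.83 in ConA + vehicle 3 hr livers, against 1.84, 2.52, 2.29, 1.86 and 1.97 in untreated livers. The groups were again apart, and the gene fell (-1.44 ± 0.20, adjusted p = 1.12e-06). The helicase subunit genes Mcm3 (-0.64 ± 0.13, adjusted p = 0.000127) and Mcm7 (-0.61 ± 0.12, adjusted p = 0.000177) fell as well. Differences for Mcm2, Mcm5 and Mcm6, -0.39 ± 0.23, -0.18 ± 0.20 and -0.25 ± 0.18, were not called. Cdc6 was counted higher, but its probe was above background on no array of either group, so no fold is given. Mcm2 was high in 1 ConA mouse, number 3, without which it was called lower (-0.71, adjusted p = 0.000243).

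Among the nucleotide genes, Tyms, the thymidylate synthase that makes dTMP, had levels of -0.80, -1.13, -0.78, 0.56 and 0.74 in ConA + vehicle 3 hr livers, against -2.24, -2.20, -2.31, -1.80 and -2.28 in untreated livers. It rose (1.88 ± 0.31, adjusted p = 1.5e-05), and its ConA arrays split by slide, with 0.56 and 0.74 for mice 4 and 5 on slide 3 and -0.80, -1.13 and -0.78 for the mice on slides 1 and 2. Within slides 1 and 2 the difference was 1.38 and 1.23, and the part of the slide in the rest was not tested. Tk1, the thymidine kinase that salvages thymidine, had levels of 2.01, 2.16, 2.37, 2.09 and 2.46 in ConA + vehicle 3 hr livers, against 3.25, 2.87, 2.81, 2.95 and 3.11 in untreated livers. It fell without overlap (-0.78 ± 0.19, adjusted p = 0.00119). The ribonucleotide reductase subunits Rrm1 (-0.63 ± 0.087, adjusted p = 1.12e-06) and Rrm2 (-0.63 ± 0.20, adjusted p = 0.00889) fell, although Rrm2 was no longer called once the slide was a block (-0.47 ± 0.27, adjusted p = 0.161). Pcna fell (-0.18 ± 0.074, adjusted p = 0.035), a call lost without any of untreated replicates 2, 3 and 5 or ConA + vehicle replicates 1 and 3, with adjusted p of 0.0852, 0.055, 0.0683, 0.102 and 0.0654.

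Among the regulators of entry into S phase, Ccne1, cyclin E1, had levels of 0.49, 0.032, -0.073, -0.48 and -0.11 in ConA + vehicle 3 hr livers, against -1.73, -2.25, -2.27, -2.20 and -2.35 in untreated livers. Every ConA mouse was above every untreated mouse, and the gene rose 4.39-fold (2.13 ± 0.13, adjusted p = 2.49e-12). E2f1, the transcription factor, had levels of -1.67, -2.20, -2.37, -2.16 and -2.27 in ConA + vehicle 3 hr livers, against -0.96, -1.21, -1.37, -1.33 and -1.27 in untreated livers. It fell without overlap (-0.90 ± 0.26, adjusted p = 0.00396). Ccnd1, cyclin D1, was at 5.33, 4.69, 3.29, 3.21 and 2.30 in ConA + vehicle 3 hr livers, against 3.79, 3.39, 3.35, 2.72 and 3.73 in untreated livers. The ConA mice ran from far above to below the untreated mice, and no change was called (0.37 ± 0.42, adjusted p = 0.449).

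Among the mitotic genes, Ccnf, cyclin F, a substrate receptor of the SCF ubiquitin ligase, had levels of -2.91, -4.30, -4.21, -4.42 and -3.99 in ConA + vehicle 3 hr livers, against 1.92, 1.77, 1.57, 2.34 and 1.68 in untreated livers. It was above background on 3 ConA arrays and all 5 untreated arrays, and it fell (-5.82 ± 0.35, adjusted p = 1.44e-12), also within slide 1 (-6.09) and slide 2 (-5.38). The promoter window of Ccnf printed above holds CHR and CCAAT letters like those of Plk1, which was not called at 3 hr, and Ccnb2, which was called higher. Aurka, a kinase of the spindle poles, had levels of -2.62, -3.99, -4.09, -5.01 and -3.93 in ConA + vehicle 3 hr livers, against -2.01, -2.14, -2.23, -2.40 and -2.27 in untreated livers. It fell (-1.72 ± 0.25, adjusted p = 2.2e-06) and was above background on 4 ConA arrays. Cenpa, the histone of centromeres, fell (-1.49 ± 0.21, adjusted p = 1.78e-06), with levels of -1.71, -2.34, -1.52, -2.54 and -2.87 in ConA + vehicle 3 hr livers, against -0.34, -0.85, -0.82, -0.92 and -0.62 in untreated livers. The kinesin gene Kif20a (-0.67 ± 0.23, adjusted p = 0.0154) was above background on 2 ConA arrays and the checkpoint kinase gene Bub1b (-1.17 ± 0.33, adjusted p = 0.00374) on none, and no fold is given for the second, whose bound was under 1. Both calls were lost with normexp background, and that of Bub1b also when slides were blocked (-0.62 ± 0.41, adjusted p = 0.215). Without untreated replicate 2 or ConA + vehicle replicate 4 the Kif20a difference was -0.55, adjusted p = 0.0529, and -0.53, adjusted p = 0.058.

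Mki67, the Ki-67 antigen of cycling cells, had levels of 0.76, -0.067, 0.15, -0.024 and -0.046 in ConA + vehicle 3 hr livers, against -1.31, -1.61, -1.36, -1.55 and -1.09 in untreated livers. The groups were apart and it rose (1.54 ± 0.19, adjusted p = 2.24e-07), with ConA mouse 1 well above the other 4. Nusap1, a spindle protein, rose (1.42 ± 0.42, adjusted p = 0.00517) and was above background on 2 untreated arrays. In the fit blocked by slide it missed the threshold (1.15 ± 0.58, adjusted p = 0.103). The cyclin genes Ccna2 (0.63 ± 0.22, adjusted p = 0.0159) and Ccnb2 (0.48 ± 0.18, adjusted p = 0.0259) rose slightly. Without ConA + vehicle replicate 1 they stood at 0.47, adjusted p = 0.061, and 0.35, adjusted p = 0.0913. Without untreated replicate 4 they stood at 0.51, adjusted p = 0.0552, and 0.45, adjusted p = 0.0535, and Ccnb2 without untreated replicate 5 at 0.45, adjusted p = 0.0507. Blocking by slide (adjusted p = 0.0659) and quantile normalization (adjusted p = 0.0501) also ended the call of Ccna2, and normexp background (adjusted p = 0.052) and the series matrix values (adjusted p = 0.0682) that of Ccnb2. The other 10 mitotic genes, Plk1 and Top2a among them, were not called, but without ConA + vehicle replicate 1 Cdc20 (-0.57, adjusted p = 0.0151) and Cdk1 (-0.60, adjusted p = 0.0184) were called lower. In the fit blocked by slide Cdk1 was called lower (-0.78 ± 0.29, adjusted p = 0.0271) and Kif11 higher (1.00 ± 0.40, adjusted p = 0.0432), although Kif11 was above background on no array of either group. Ccnb1 was called higher without ConA + vehicle replicate 3 (0.99, adjusted p = 0.0413), and Top2a without ConA + BW245C 3 hr replicate 4 or 5, arrays that enter only through the shared spread (0.77, adjusted p = 0.0438, and 0.77, adjusted p = 0.0372).

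Dim members gave smaller differences with normexp background, whose offset of 50 draws low signals together by construction. At 3 hr the log2 differences that moved by over 1.5 times with it were -3.75 for Ccnf, -0.88 for Cenpa, -0.69 for Cdt1, 0.53 for Nusap1, -0.53 for E2f1, -0.47 for Aurka, 0.36 for Ccna2 and 0.31 for Ccnb2, beside Bub1b and Kif20a. Pcna stood at -0.28 when slides were blocked and at -0.29 with the series matrix values.

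Markers of other cells moved at 3 hr too. Of 12 measured T and NK lymphocyte markers 9 were called higher, and their summed signal, relative to the 75th percentile of the array, was 60.28 to 107.8 in ConA + vehicle 3 hr livers and 48.67 to 87.63 in untreated livers. For 12 neutrophil markers, 8 called higher, the sum was 189.5 to 303.9 in ConA + vehicle 3 hr livers and 124.8 to 136.4 in untreated livers. For 5 erythroid markers, 3 called higher, it was 339.1 to 536.3 in ConA + vehicle 3 hr livers and 40.67 to 122 in untreated livers. In ConA + vehicle 3 hr livers 1 neutrophil marker was above background on no array, and in untreated livers 1 lymphocyte and 4 neutrophil markers were. The hepatocyte markers, 3 of 9 called higher and 1 lower, summed to 6174 to 7833 in ConA + vehicle 3 hr livers and 5150 to 6099 in untreated livers. The 8 sinusoidal endothelial markers, 1 called higher and 2 lower, summed to 53.86 to 74.26 in ConA + vehicle 3 hr livers and 81.62 to 96.86 in untreated livers, and the 7 Kupffer and macrophage markers, 3 called lower, to 49.72 to 120.4 in ConA + vehicle 3 hr livers and 88.9 to 140.9 in untreated livers. Of 4 B lymphocyte markers 2 were called higher. As fitted, median log2 differences were 0.73 for T and NK, 5.17 for neutrophil, 1.31 for erythroid and 0.54 for B lymphocyte markers. They were 0.096 for hepatocyte, -0.33 for sinusoidal endothelial and -0.71 for Kupffer and macrophage markers. A sum weighs the brightest markers most. The part of these markers in the changes of the members was not tested.

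At 24 hr after ConA with vehicle, most measured genes of both sets rose relative to untreated livers. Of the 19 G2 and mitosis genes 17 were called higher and none lower, with a median of 2.39 (2.10 with Bub1 and Kif11 at their bounds). Of the 17 G1/S and replication genes 12 were higher and 2, Tk1 and Mcm10, were lower, with a median of 1.18. Over all genes tested 29.7% were called higher and 39.1% lower (68.9% in either direction), the median was -0.082, and the series matrix values, scaled by the authors, moved that median to 0.26 and the share of calls that were higher to 65.7%, against 43.2%. With them 31 members were higher and 2 lower. Bub1, Kif11 and Cdc6 could enter the test only through ConA groups, being below background on all untreated arrays. Bub1b, above background on 3 untreated arrays, also needed ConA arrays of 24 hr to enter. Among the 16 replication and 6 mitotic genes above background on all 25 arrays, a fit limited to such probes called 16 higher and 2 lower. The shares of all genes called in that fit are not given here. The arrays did not overlap for 31 members, and for 64% of all genes.

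**Figure D3:**
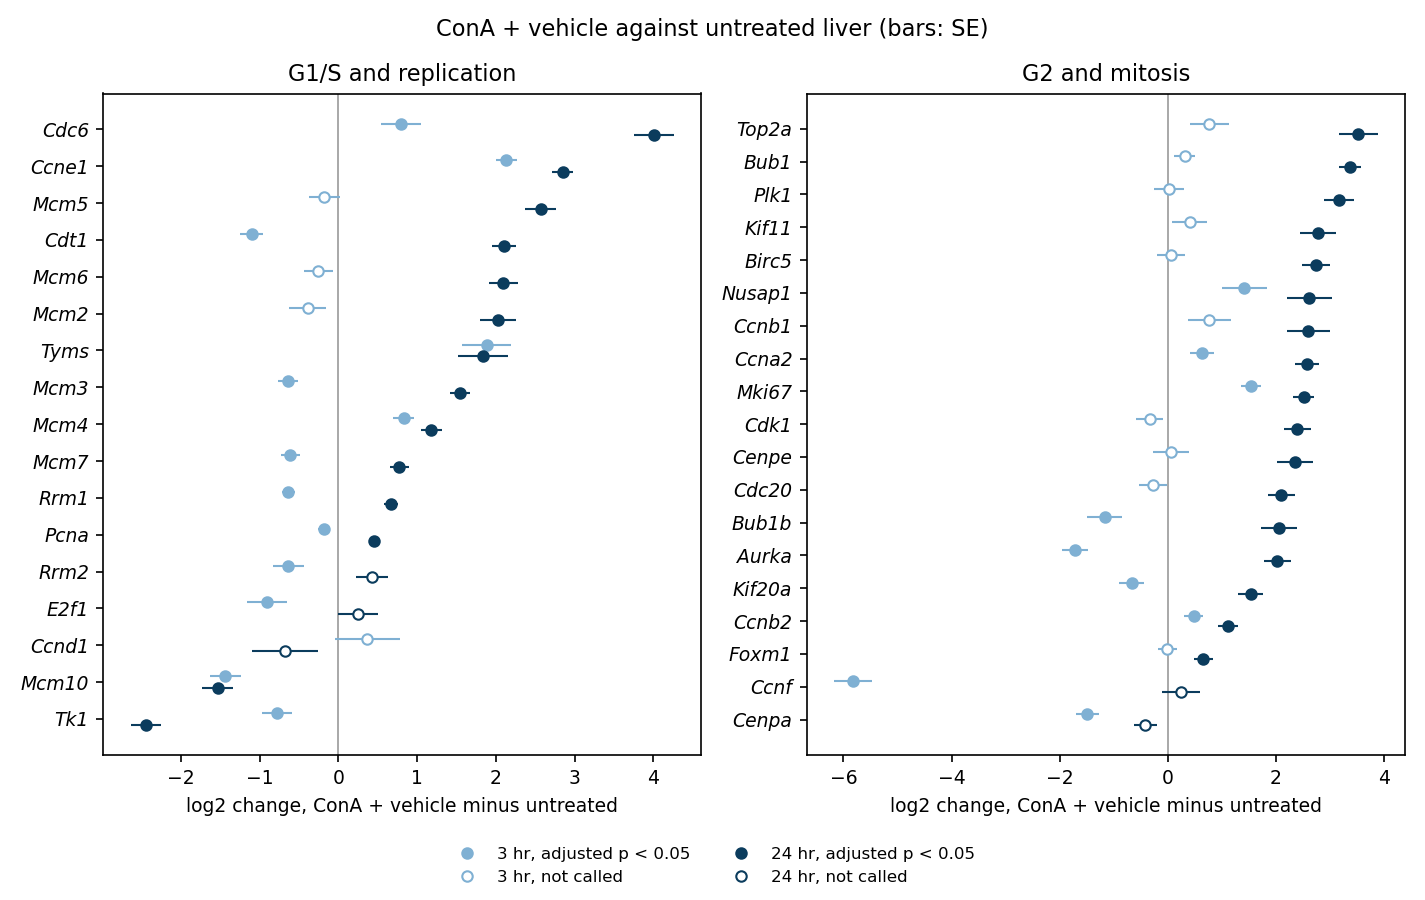
Log2 difference from untreated livers with its standard error (horizontal axis) for each measured member (rows, by set), for ConA + vehicle 3 hr and ConA + vehicle 24 hr livers. Filled points were called, and fitted values of members below background in a group, such as Cdc6, are drawn as fitted and are not folds. At 24 hr 29 members lie to the right of 0 as calls and Tk1 and Mcm10 to the left, and at 3 hr Ccnf stands apart at -5.82.

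Among the licensing genes, Mcm6, a helicase subunit, had levels of 3.65, 3.44, 3.38, 3.34 and 3.14 in ConA + vehicle 24 hr livers, against 1.33, 1.33, 1.38, 0.78 and 1.63 in untreated livers. The groups were far apart, and it rose 4.28-fold (2.10 ± 0.18, adjusted p = 5.27e-10). Mcm5 had levels of 1.41, 1.31, 1.09, 0.93 and 0.74 in ConA + vehicle 24 hr livers, against -1.53, -1.43, -1.29, -2.31 and -0.80 in untreated livers. It rose 5.93-fold (2.57 ± 0.20, adjusted p = 1.02e-10). Cdt1 had levels of 2.01, 1.76, 1.67, 1.72 and 1.60 in ConA + vehicle 24 hr livers, against 0.057, -0.44, -0.30, -0.74 and -0.32 in untreated livers. It rose 4.29-fold (2.10 ± 0.15, adjusted p = 1.71e-11), having fallen at 3 hr. Mcm2 rose 4.09-fold (2.03 ± 0.23, adjusted p = 4.78e-08), and Mcm3, Mcm4 and Mcm7 rose 2.91-fold, 2.27-fold and 1.71-fold. Cdc6, at -2.23, -2.50, -2.97, -2.83 and -3.19, was above background on all 5 ConA arrays and on none of the untreated ones, and it rose at least 3.83-fold (adjusted p = 3.32e-12), a bound against the lowest signal called above background on each array. Its other probe was above background on 2 of the 5 ConA arrays and had a difference of 2.15.

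Mcm10, which is no subunit of that helicase, went the other way, with levels of 0.60, 0.68, 0.62, 0.24 and 0.70 in ConA + vehicle 24 hr livers, against 1.84, 2.52, 2.29, 1.86 and 1.97 in untreated livers. No ConA mouse reached an untreated one, and it fell 2.89-fold (-1.53 ± 0.20, adjusted p = 3.47e-07). Tk1 had levels of 0.80, 1.07, 0.53, -0.033 and 0.39 in ConA + vehicle 24 hr livers, against 3.25, 2.87, 2.81, 2.95 and 3.11 in untreated livers. It fell 5.45-fold (-2.45 ± 0.19, adjusted p = 1e-10), also in the fit blocked by slide (-2.02 ± 0.35, adjusted p = 0.000119). Tyms, which makes the same nucleotide by the other route, had levels of -0.33, -0.13, -0.50, -0.019 and -0.68 in ConA + vehicle 24 hr livers, against -2.24, -2.20, -2.31, -1.80 and -2.28 in untreated livers. It rose 3.58-fold (1.84 ± 0.31, adjusted p = 1.69e-05) without overlap, but was not called in the fit blocked by slide (0.42 ± 0.26, adjusted p = 0.189). Rrm1 rose 1.59-fold (0.67 ± 0.087, adjusted p = 4.04e-07) and Pcna 1.37-fold (0.46 ± 0.074, adjusted p = 8.16e-06). Rrm2, at 0.43 ± 0.20 with adjusted p = 0.0614, was not called. It was called higher without untreated replicate 4, the highest of its group (0.56, adjusted p = 0.0172), or ConA + vehicle replicate 3 (0.50, adjusted p = 0.044), and without ConA + vehicle 3 hr replicate 4 or ConA + BW245C 3 hr replicate 2, which enter only through the shared spread (adjusted p = 0.0493 and 0.0466). With no array left out, normexp background (0.46, adjusted p = 0.0214), quantile normalization (0.52, adjusted p = 0.0251) and the series matrix values (0.78, adjusted p = 0.00167) also called Rrm2 higher. So did the fit of only the groups compared (0.43, adjusted p = 0.0369), while the fit blocked by slide did not (0.86 ± 0.39, adjusted p = 0.0718).

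In the RefSeq annotation the span of Tk1 overlaps that of Afmid, an arylformamidase of tryptophan breakdown, which was named here after its values were seen. Afmid averaged -0.98 ± 0.47 in ConA + vehicle 24 hr livers and 3.78 ± 0.072 in untreated livers (SD, n = 5 each). Its log2 difference was -4.76 ± 0.21, adjusted p = 1.28e-14 in the limma fit. In that annotation 15 members overlap another gene, and 11 overlapping genes were measured. Cstf1 over Aurka (-0.46), Elovl1 over Cdc20 (-0.47) and Cdc23 over Kif20a (-0.68) were called lower in this comparison, while their members rose. Oip5 over Nusap1 (1.32) was called higher like its member, and the remaining measured ones were not called. The strand of the probes was not used here, and the part of Afmid in the values of Tk1 was not tested.

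Ccne1 had levels of 0.87, 0.64, 0.64, 0.61 and 0.70 in ConA + vehicle 24 hr livers, and the untreated levels given above lay far below them. It rose 7.22-fold (2.85 ± 0.13, adjusted p = 2.79e-14). Ccnd1, at 2.85, 2.67, 2.54, 2.79 and 2.73, and E2f1, at -0.89, -0.81, -1.01, -1.27 and -0.92, were not called (-0.68 ± 0.42, adjusted p = 0.15, and 0.25 ± 0.26, adjusted p = 0.395). In the fit of only the groups compared, Ccnd1 was called lower (-0.68 ± 0.18, adjusted p = 0.005) and E2f1 higher (0.25 ± 0.10, adjusted p = 0.0498). The series matrix values also gave a higher call for E2f1 (0.59, adjusted p = 0.0434). Blocking by slide left both uncalled (-0.064 ± 0.67, adjusted p = 0.946, and 0.42 ± 0.50, adjusted p = 0.511).

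Among the mitotic genes, Plk1, a kinase of mitotic entry and spindle assembly, had levels of 0.89, 0.57, 0.35, -0.19 and 0.25 in ConA + vehicle 24 hr livers, against -2.39, -2.94, -2.83, -3.21 and -2.56 in untreated livers. It rose 8.94-fold (3.16 ± 0.28, adjusted p = 5.98e-10) with a wide gap between the groups. Top2a, the topoisomerase that untangles chromosomes, had levels of -0.56, -0.73, -0.98, -1.55 and -1.59 in ConA + vehicle 24 hr livers, against -4.15, -5.31, -4.58, -4.49 and -4.50 in untreated livers. It rose 11.5-fold (3.52 ± 0.36, adjusted p = 8.36e-09), although its probe was above background on only 2 untreated arrays. Birc5, survivin, a subunit of the chromosomal passenger complex, had levels of 2.04, 1.84, 1.58, 1.11 and 1.57 in ConA + vehicle 24 hr livers, against -0.99, -0.88, -0.92, -1.56 and -1.21 in untreated livers. It rose 6.69-fold (2.74 ± 0.26, adjusted p = 3.43e-09). Mki67 had levels of 1.54, 1.31, 1.04, 0.78 and 0.96 in ConA livers and rose 5.70-fold (2.51 ± 0.19, adjusted p = 5.71e-11).

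The cyclin genes Ccnb1 and Ccna2 rose 6.05-fold and 5.95-fold (adjusted p = 4.18e-06 and 3.95e-10), Ccnb1 from a probe above background on 2 untreated arrays. Ccnb2 rose 2.17-fold and their kinase Cdk1 5.25-fold (adjusted p = 1.25e-08). Other probes of Cdk1 differed by 0.43 and 1.54, against 2.39 for the probe used. Nusap1, above background on 2 untreated arrays, rose 6.14-fold (adjusted p = 6.91e-06), the kinetochore motor gene Cenpe 5.11-fold (adjusted p = 1.35e-06), Cdc20, the activator of the anaphase-promoting complex, 4.29-fold (adjusted p = 1.26e-07), Aurka 4.08-fold (adjusted p = 1.48e-07) and Kif20a 2.90-fold (adjusted p = 3.17e-06). The checkpoint kinase gene Bub1 rose at least 3.30-fold (adjusted p = 1.17e-12) and the spindle motor gene Kif11 at least 2.22-fold (adjusted p = 8.23e-08), neither being above background on an untreated array. Bub1b, above background on 3 untreated arrays, rose 4.17-fold (adjusted p = 7.4e-06). Foxm1, a transcription factor of mitotic genes, rose 1.57-fold (0.65 ± 0.18, adjusted p = 0.00229), a call lost with normexp background (adjusted p = 0.339) and with quantile normalization (adjusted p = 0.107).

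The size of the rise of dim genes depends on the background correction. With normexp background the log2 differences that moved by over 1.5 times were 2.05 for Plk1, 1.42 for Ccna2, 1.39 for Top2a, 1.38 for Cdc20, 1.25 for Aurka, 1.19 for Cenpe, 1.15 for Cdk1, 0.93 for Nusap1, 0.79 for Ccnb1, 0.72 for Ccnb2, 0.71 for Cdc6, 0.63 for Bub1b, 0.62 for Kif20a, 0.54 for Bub1 and 0.29 for Kif11, beside Foxm1. For Bub1, Kif11 and Cdc6 these lie under the bounds given above, which hold only for the background-subtracted signals used here. Cdk1 stood at 1.45 with the mean of its probes. Larger values came with slides blocked, 3.16 for Bub1b, 1.69 for Ccnb2, 1.20 for Foxm1 and 1.19 for Mcm7, with the series matrix, 1.01 for Rrm1, 1.00 for Foxm1 and 0.80 for Pcna, and with quantile normalization for Pcna, at 0.78.

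Ccnf and Cenpa were the mitotic genes not called at 24 hr. Ccnf was at 2.26, 1.74, 2.24, 1.84 and 2.40 in ConA + vehicle 24 hr livers, against 1.92, 1.77, 1.57, 2.34 and 1.68 in untreated livers. Those ranges overlapped (0.24 ± 0.35, adjusted p = 0.557). Cenpa was at -0.71, -0.73, -1.14, -1.76 and -1.30 in ConA + vehicle 24 hr livers (-0.42 ± 0.21, adjusted p = 0.0825), and it was called lower without ConA + vehicle replicate 1 (adjusted p = 0.0407) or 2 (0.0431). In the fit blocked by slide its sign turned and it was not called (0.50 ± 0.33, adjusted p = 0.213).

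**Figure D4:**
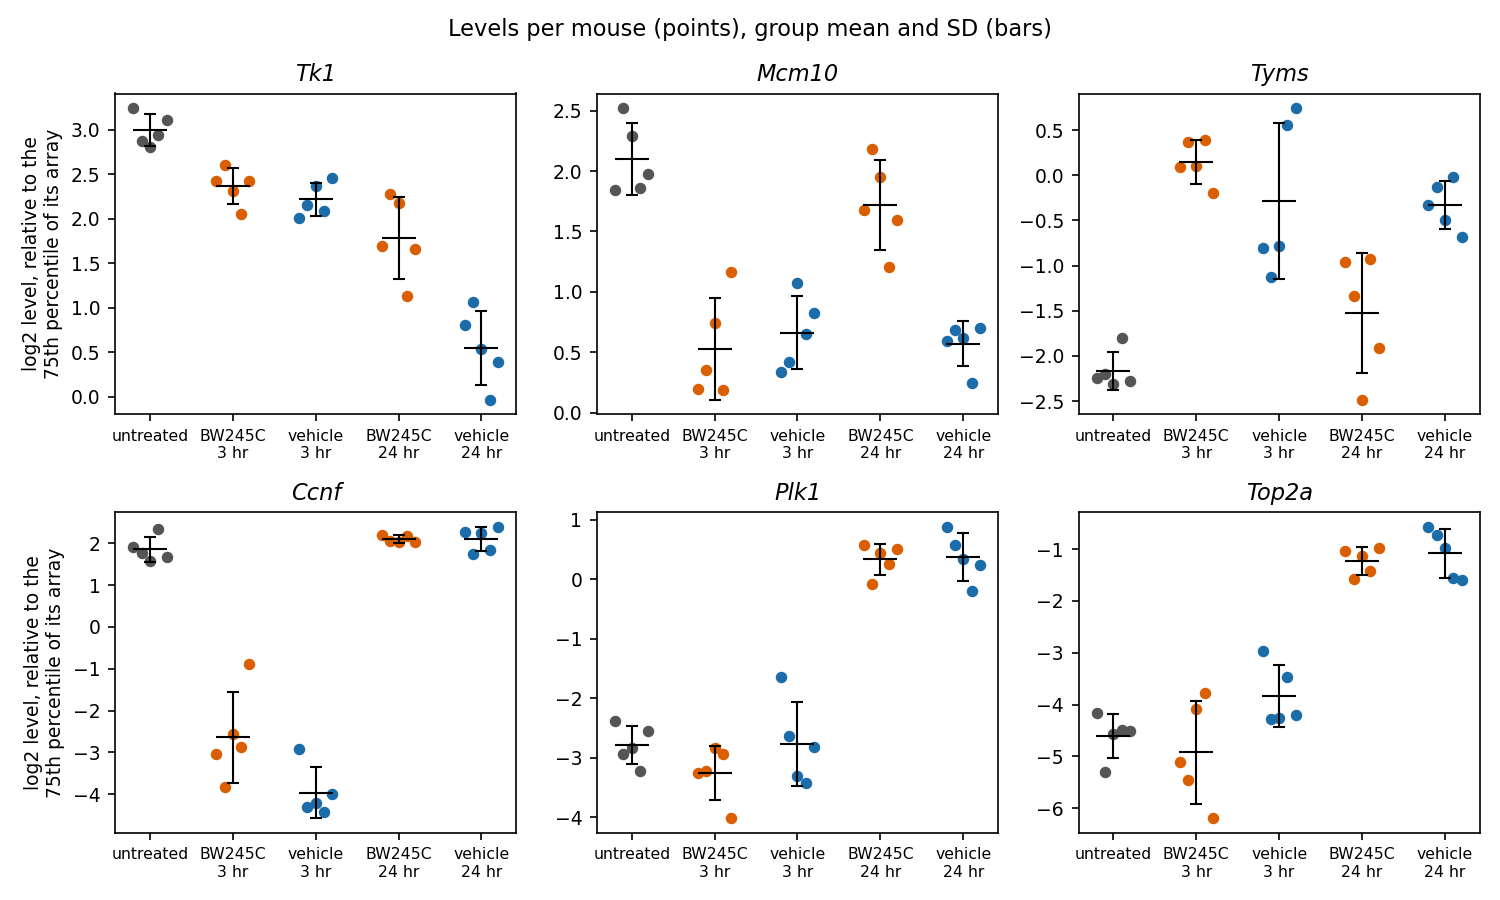
Log2 level relative to the 75th percentile of the array (vertical axis) of Tk1, Mcm10, Tyms, Ccnf, Plk1 and Top2a in each mouse, by group (horizontal axis). Points are mice and bars show the mean and its SD (n = 5). Tk1 and Mcm10 are higher in ConA + BW245C 24 hr than in ConA + vehicle 24 hr livers, Tyms is lower, and the mice of these 2 groups overlap for Plk1 and Top2a.

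Markers of other cells at 24 hr are given beside these counts. The hepatocyte markers, 8 of 9 called lower and 1 higher, summed to 3371 to 4458 in ConA + vehicle 24 hr livers and 5150 to 6099 in untreated livers. The T and NK lymphocyte markers, 10 of 12 called higher and 1 lower, summed to 54.99 to 88.51 in ConA + vehicle 24 hr livers and 48.67 to 87.63 in untreated livers, so the sums overlapped. The 12 neutrophil markers, 9 called higher, summed to 269.3 to 403.2 in ConA + vehicle 24 hr livers and 124.8 to 136.4 in untreated livers. All 4 measured B lymphocyte markers were called higher, with sums of 0.9152 to 3.191 in ConA + vehicle 24 hr livers and 0.7879 to 0.9433 in untreated livers. Every marker of these lists was above background on at least 1 ConA array, while 1 lymphocyte and 4 neutrophil markers were above it on no untreated array. Of 7 Kupffer and macrophage markers 6 were called lower, with sums of 21.73 to 40.83 in ConA + vehicle 24 hr livers and 88.9 to 140.9 in untreated livers. The 8 sinusoidal endothelial markers, 3 called higher and 4 lower, summed to 42.01 to 46.79 in ConA + vehicle 24 hr livers and 81.62 to 96.86 in untreated livers, and the 5 erythroid markers, 1 called higher and 2 lower, to 40.91 to 102.7 in ConA + vehicle 24 hr livers and 40.67 to 122 in untreated livers. As fitted, median log2 differences were -0.99 for hepatocyte, 2.28 for T and NK, 5.15 for neutrophil and 1.20 for B lymphocyte markers. They were -2.24 for Kupffer and macrophage, -0.30 for sinusoidal endothelial and -0.14 for erythroid markers. A sum weighs the brightest markers most. The part of these markers in the rise of the cell cycle genes was not tested.

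Between 3 and 24 hr after ConA with vehicle, every measured G2 and mitosis gene was called higher (19 of 19, by 0.64 to 6.06 as fitted, median 2.37, or 1.94 with 3 genes at their bounds). Of the 17 G1/S and replication genes 13 rose and 2, Tk1 and Ccnd1, fell (median 1.15). The probes used for Bub1, Kif11 and Cdc6 were above background on no 3 hr or untreated array. Those of Bub1b were above it on 3 untreated arrays and on no 3 hr array. All of these could enter the test only through the 24 hr groups, where they were high. 3 of the mitotic calls did not hold everywhere: with normexp background Foxm1 stood at -0.076 (adjusted p = 0.434) and Kif11 at 0.091 (adjusted p = 0.382), and with the slide as a block Nusap1 stood at 1.45 ± 0.65, adjusted p = 0.0605. The call of Cdk1 rests on its brightest probe, at 2.72. Its other probes differed by -0.26 and 1.58, the former being above background on 3 arrays at each time. Over all genes tested 33.2% were called higher and 35.3% lower (68.4% in either direction), with a median of -0.026. The series matrix values moved that median to 0.42 and the share of calls that were higher to 74.1%, against 48.5%, and with them 32 members rose and 1 fell. Slide 3 held 1 ConA + vehicle array of 24 hr (replicate 1) and 2 of 3 hr, and within it 33 of the 34 called members had the same sign. These arrays also entered the fit that made the calls, so the signs were likely to match beforehand. Replicate 1 had the highest set medians of its group, 1.40 for replication and 2.84 for mitotic genes. The arrays did not overlap for 28 members, and for 52.3% of all genes.

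Ccnf had the largest rise, at 2.26, 1.74, 2.24, 1.84 and 2.40 in ConA + vehicle 24 hr livers, against -2.91, -4.30, -4.21, -4.42 and -3.99 in ConA + vehicle 3 hr livers. The groups lay far apart (6.06 ± 0.35, adjusted p = 7.91e-13), with 6.46 within slide 3. Aurka rose 13.4-fold (3.75 ± 0.25, adjusted p = 6.38e-12), Plk1 8.82-fold (3.14 ± 0.28, adjusted p = 6.75e-10) and Cdt1 9.21-fold (3.20 ± 0.15, adjusted p = 3.95e-14). By bounds, against no 3 hr array above background, Bub1b rose at least 3.75-fold (adjusted p = 8.04e-09), Cdc6 at least 3.18-fold (adjusted p = 1.33e-10), Bub1 at least 2.74-fold (adjusted p = 5.84e-12) and Kif11 at least 1.84-fold (adjusted p = 8.48e-07). Tk1 fell 3.17-fold (-1.67 ± 0.19, adjusted p = 5.51e-08), so that this gene was called lower at 3 hr and lower again at 24 hr. Ccnd1 fell (-1.05 ± 0.42, adjusted p = 0.0293), but it was not called without ConA + vehicle 3 hr replicate 1 (-0.66, adjusted p = 0.126) or 2 (-0.82, adjusted p = 0.0963), nor without ConA + vehicle 24 hr replicate 3 (-1.01, adjusted p = 0.0544). Blocking by slide also ended its call (-0.63 ± 0.54, adjusted p = 0.313), within slide 3 its sign turned (0.095), and with the series matrix values it stood at -0.60. Mcm10 (-0.094 ± 0.20, adjusted p = 0.689) and Tyms (-0.045 ± 0.31, adjusted p = 0.906) were not called, although with the slide as a block Tyms was lower (-0.90 ± 0.21, adjusted p = 0.00111). Mcm4 rose (0.35 ± 0.14, adjusted p = 0.0259), a call lost without ConA + vehicle 3 hr replicate 4 (0.31, adjusted p = 0.0653) or 5 (0.30, adjusted p = 0.0697) or ConA + vehicle 24 hr replicate 1 (0.30, adjusted p = 0.073).

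With normexp background the log2 differences between the times that moved by over 1.5 times were 1.95 for Plk1, 1.72 for Aurka, 1.61 for Mcm2, 1.40 for Cdc20, 1.11 for Top2a, 1.09 for Cdk1, 1.06 for Ccna2, 1.05 for Cenpe, 0.67 for E2f1, 0.62 for Kif20a, 0.61 for Bub1b, 0.60 for Cenpa, 0.43 for Ccnb1, 0.42 for Cdc6, 0.40 for Ccnb2, 0.40 for Nusap1 and 0.32 for Bub1, beside Foxm1 and Kif11, and those of Bub1, Bub1b and Cdc6 again lie under their bounds. Cdk1 stood at 1.35 with the mean of its probes. Larger values came with slides blocked, 1.19 for Ccnb2, 1.02 for Foxm1 and 0.59 for Mcm4, with the series matrix, 1.17 for Ccne1, 1.11 for Foxm1, 1.09 for Pcna, 1.09 for Ccnb2 and 0.80 for Mcm4, and with quantile normalization for Pcna, at 1.01.

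Between the times all 9 hepatocyte markers were called lower, with sums of 3371 to 4458 in ConA + vehicle 24 hr livers and 6174 to 7833 in ConA + vehicle 3 hr livers. Of 12 T and NK lymphocyte markers 9 were higher and 1 lower, with sums of 54.99 to 88.51 in ConA + vehicle 24 hr livers and 60.28 to 107.8 in ConA + vehicle 3 hr livers, and of 12 neutrophil markers 6 were higher and 1 lower, with sums of 269.3 to 403.2 in ConA + vehicle 24 hr livers and 189.5 to 303.9 in ConA + vehicle 3 hr livers. Of 5 erythroid markers 4 were lower, with sums of 40.91 to 102.7 in ConA + vehicle 24 hr livers and 339.1 to 536.3 in ConA + vehicle 3 hr livers, and of 7 Kupffer and macrophage markers 6 were lower, with sums of 21.73 to 40.83 in ConA + vehicle 24 hr livers and 49.72 to 120.4 in ConA + vehicle 3 hr livers. The sinusoidal endothelial markers, 4 of 8 higher and 3 lower, summed to 42.01 to 46.79 in ConA + vehicle 24 hr livers and 53.86 to 74.26 in ConA + vehicle 3 hr livers. The B lymphocyte markers, 3 of 4 higher, summed to 0.9152 to 3.191 in ConA + vehicle 24 hr livers and 0.7003 to 1.189 in ConA + vehicle 3 hr livers. As fitted, median log2 differences were -1.04 for hepatocyte, 1.27 for T and NK, 0.92 for neutrophil and 1.04 for B lymphocyte markers. They were -2.16 for erythroid, -1.52 for Kupffer and macrophage and 0.20 for sinusoidal endothelial markers. The part of these markers in the changes of the members was not tested.

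The comparison of ConA + BW245C with ConA + vehicle asks what the DP1 agonist changed in inflamed livers. It shares the vehicle arrays with the comparisons above. At 3 hr few members differed. Ccnf was called higher, and Mcm4, Top2a and Ccnb1 lower, so that 1 of 36 was higher and 3 were lower, while 11.7% of all genes were called higher and 16.8% lower (28.6% in either direction). The median was 0.099 for G1/S and replication genes and -0.25 for G2 and mitosis genes, against -0.037 for all genes, and the arrays overlapped for every member, while for 13.5% of all genes they did not. With the series matrix values the median of all genes was 0.077 and 62.1% of the calls were higher, against 41.1%, and 3 members were called higher and 1 lower.

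Ccnf had levels of -3.04, -3.83, -2.56, -2.87 and -0.89 in ConA + BW245C 3 hr livers, against -2.91, -4.30, -4.21, -4.42 and -3.99 in ConA + vehicle 3 hr livers. Mouse 5 of the BW245C group stood highest and the groups overlapped (1.33 ± 0.35, adjusted p = 0.00794). Mcm4 had levels of 1.04, 1.19, 1.16, 1.61 and 0.67 in ConA + BW245C 3 hr livers, against 1.75, 1.82, 1.81, 1.48 and 1.45 in ConA + vehicle 3 hr livers. All but 1 BW245C mouse were below the vehicle mice (-0.53 ± 0.14, adjusted p = 0.00668). Top2a (-1.08 ± 0.36, adjusted p = 0.0276) was above background on 1 BW245C and 2 vehicle arrays, and Ccnb1 (-1.07 ± 0.40, adjusted p = 0.048) on 2 and 4. In the fit blocked by slide none of the 4 was called (adjusted p between 0.0593 and 0.195), while Mcm7 was called higher (0.41 ± 0.12, adjusted p = 0.0299), and no member held its call in every alternative. With normexp background the differences were 0.47 for Ccnf, -0.37 for Ccnb1 and -0.23 for Top2a, and with the mean of its probes that of Ccnb1 was -0.70. Without ConA + vehicle 3 hr replicate 1, which was high for several mitotic genes, Ccnb1 stood at -0.79, adjusted p = 0.157, and Top2a at -0.87, adjusted p = 0.0925. Without ConA + BW245C 3 hr replicate 5 they stood at -0.68, adjusted p = 0.163, and -0.77, adjusted p = 0.0959. Leaving out further single arrays also ended the Ccnb1 and Top2a calls, with no difference moved by over 1.5 times in those cases. Without vehicle replicate 1 Cdk1 (0.76, adjusted p = 0.014) and Aurka (0.69, adjusted p = 0.00636) were called higher, and without BW245C replicate 2 Rrm2 was (0.58, adjusted p = 0.0383). Nusap1 was called lower without BW245C replicate 1, 3 or 4 (adjusted p = 0.0368, 0.0484 and 0.0417), and Cenpe (-1.13, adjusted p = 0.00667) and Mki67 (-0.61, adjusted p = 0.019) without BW245C replicate 4. Of the erythroid markers 4 of 5 were called lower, with sums of 42.68 to 245.8 in ConA + BW245C 3 hr livers and 339.1 to 536.3 in ConA + vehicle 3 hr livers, and of 12 T and NK lymphocyte markers 2 were higher and 1 lower, with sums of 90.5 to 126.6 in ConA + BW245C 3 hr livers and 60.28 to 107.8 in ConA + vehicle 3 hr livers. Of the hepatocyte markers 2 of 9 were higher and 1 lower, of the neutrophil markers 1 of 12 was higher, and no marker of the other lists was called. Their part was not tested.

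At 24 hr no mitotic gene was called between BW245C and vehicle livers, and 5 replication genes were. Tk1 and Mcm10, the members that ConA with vehicle had lowered, were higher with BW245C, and Tyms, Ccne1 and Pcna were lower. None of the 19 G2 and mitosis genes was called (median 0.072, range -0.15 to 0.34), and 2 of 17 G1/S and replication genes were higher and 3 lower (median -0.096). Over all genes tested 17.6% were called higher and 8.94% lower (26.5% in either direction), with a median of 0.014. With the series matrix values the median of all genes was -0.098 and 42.8% of the calls were higher, against 66.3%, and 53.2% were with the slide as a block, while the member counts were 2 higher and 3 lower under both. The arrays did not overlap for 4 members, and for 17.4% of all genes.

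Tk1 had levels of 1.69, 2.28, 2.18, 1.13 and 1.67 in ConA + BW245C 24 hr livers, against 0.80, 1.07, 0.53, -0.033 and 0.39 in ConA + vehicle 24 hr livers. Every BW245C mouse was above every vehicle mouse, and it rose 2.36-fold (1.24 ± 0.19, adjusted p = 7.6e-05), with 1.21 within slide 4, which held 3 BW245C and 4 vehicle arrays. Its mean of 1.79 ± 0.46 with BW245C, against 0.55 ± 0.42 with vehicle, was still under the 3.00 ± 0.18 of untreated livers (SD, n = 5 each). Afmid, whose span overlaps that of Tk1, moved likewise (2.10 ± 0.21, adjusted p = 2.72e-06). Mcm10 had levels of 1.68, 2.18, 1.95, 1.20 and 1.60 in ConA + BW245C 24 hr livers, against 0.60, 0.68, 0.62, 0.24 and 0.70 in ConA + vehicle 24 hr livers. The groups did not overlap, and it rose 2.23-fold (1.15 ± 0.20, adjusted p = 0.000197), with 1.13 within slide 4. Both calls held with the slide as a block and without any 1 array.

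Tyms had levels of -0.96, -1.34, -2.48, -0.93 and -1.91 in ConA + BW245C 24 hr livers, against -0.33, -0.13, -0.50, -0.019 and -0.68 in ConA + vehicle 24 hr livers. All BW245C mice were below all vehicle mice, and it fell 2.29-fold (-1.19 ± 0.31, adjusted p = 0.00677). The 2 lowest BW245C mice, 3 and 5, were on slides 2 and 5, where no vehicle array of 24 hr lay. Within slide 4 the difference was -0.75, and in the fit blocked by slide -0.72 ± 0.16, adjusted p = 0.00301, over 1.5 times nearer to 0. Ccne1 had levels of 0.35, 0.20, 0.40, 0.38 and 0.30 in ConA + BW245C 24 hr livers, against 0.87, 0.64, 0.64, 0.61 and 0.70 in ConA + vehicle 24 hr livers. It fell without overlap (-0.37 ± 0.13, adjusted p = 0.0444), a call lost without untreated replicate 2 or 4 or any 1 of the 10 arrays of 24 hr, with adjusted p between 0.0505 and 0.114. Pcna had levels of 3.60, 3.27, 3.37, 3.50 and 3.51 in ConA + BW245C 24 hr livers, against 3.88, 3.72, 3.70, 3.65 and 3.53 in ConA + vehicle 24 hr livers. Those groups overlapped, the gene fell (-0.25 ± 0.074, adjusted p = 0.0162), and the call was lost without ConA + vehicle replicate 1 (-0.20, adjusted p = 0.0624) or ConA + BW245C replicate 2 (-0.20, adjusted p = 0.0562).

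**Figure D5:**
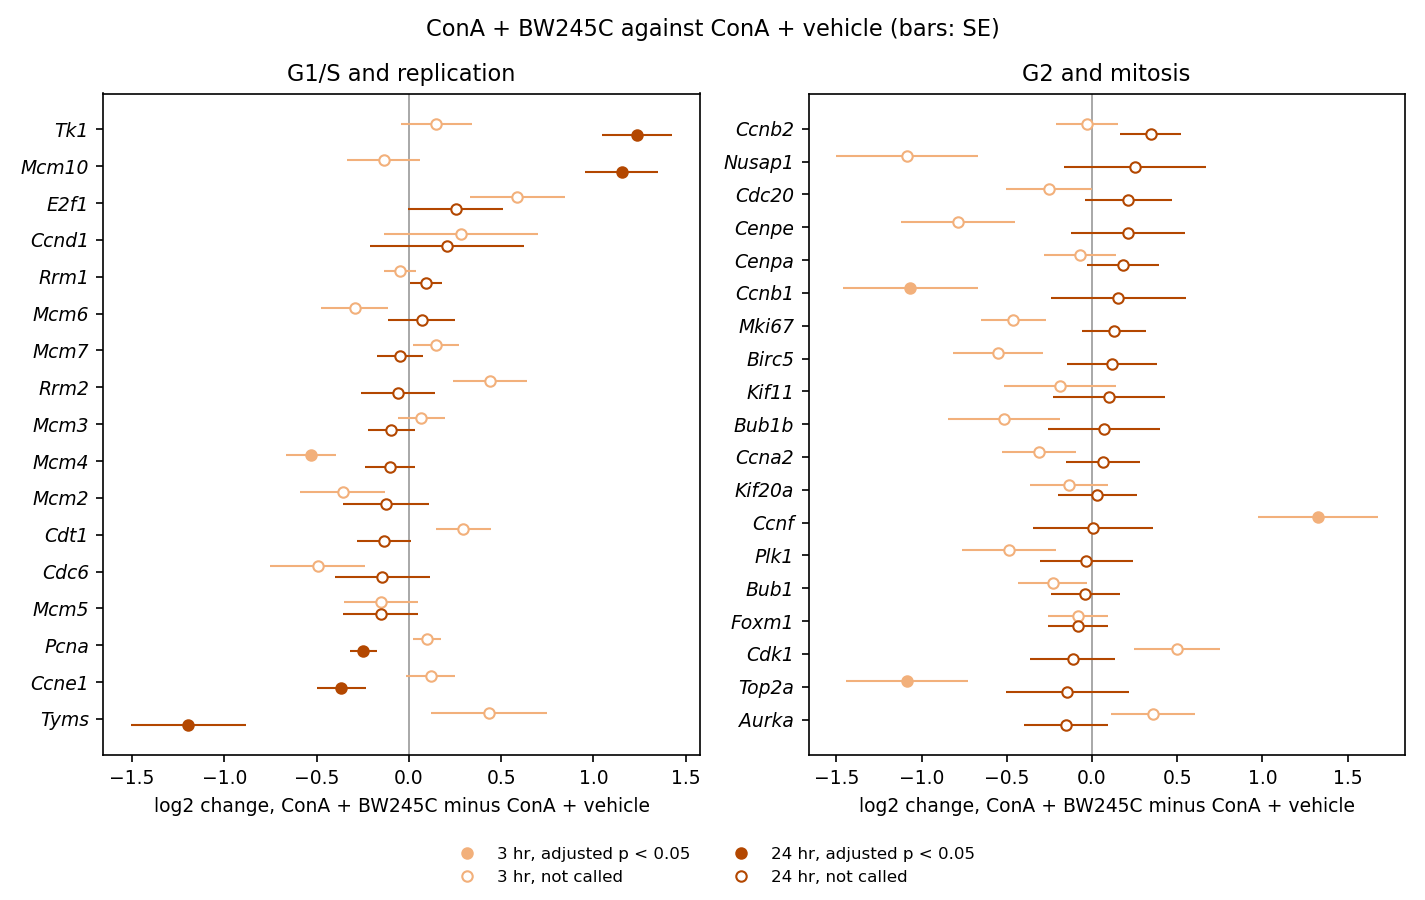
Log2 difference of ConA + BW245C minus ConA + vehicle with its standard error (horizontal axis) for each measured member (rows, by set), at 3 hr and at 24 hr. Filled points were called, and fitted values of members below background are drawn as fitted. At 24 hr Tk1 and Mcm10 lie at 1.24 and 1.15 and Tyms at -1.19, while the mitotic genes lie between -0.15 and 0.34.

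Among the mitotic genes, 2 are given by mouse. Plk1 was at 0.57, -0.071, 0.45, 0.25 and 0.50 in ConA + BW245C 24 hr livers, against 0.89, 0.57, 0.35, -0.19 and 0.25 in ConA + vehicle 24 hr livers. Top2a was at -1.03, -1.59, -1.13, -1.42 and -0.98 in ConA + BW245C 24 hr livers, against -0.56, -0.73, -0.98, -1.55 and -1.59 in ConA + vehicle 24 hr livers. The ranges overlapped, and their differences were -0.033 ± 0.28, adjusted p = 0.948, and -0.15 ± 0.36, adjusted p = 0.8. The largest positive difference was that of Ccnb2 (0.34 ± 0.18, adjusted p = 0.165), which was called without ConA + vehicle replicate 1 (adjusted p = 0.0343), and the largest negative one that of Aurka (-0.15 ± 0.25, adjusted p = 0.686). A miss of the threshold does not show that levels were equal. In the same livers 7 of 12 neutrophil markers were called lower with BW245C, with sums of 142.9 to 214.4 in ConA + BW245C 24 hr livers and 269.3 to 403.2 in ConA + vehicle 24 hr livers, 3 of 9 hepatocyte markers were higher, with sums of 3839 to 5083 in ConA + BW245C 24 hr livers and 3371 to 4458 in ConA + vehicle 24 hr livers, and 1 of 12 lymphocyte markers was lower, with sums of 49.83 to 84.75 in ConA + BW245C 24 hr livers and 54.99 to 88.51 in ConA + vehicle 24 hr livers. Of the other lists, 1 of 8 sinusoidal endothelial markers was higher. Their part in the changes of Tk1, Mcm10 and Tyms was not tested.

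Whether the agonist's effect differed between 24 and 3 hr was tested as an interaction. Mcm10 (1.29 ± 0.28, adjusted p = 0.00231) and Tk1 (1.09 ± 0.27, adjusted p = 0.00594) had more positive effects at 24 hr, and Tyms (-1.63 ± 0.44, adjusted p = 0.01), Ccnf (-1.32 ± 0.50, adjusted p = 0.0481) and Pcna (-0.34 ± 0.10, adjusted p = 0.0177) more negative ones. These were 2 higher and 3 lower of 36 members, while 19.2% of all genes were called higher and 10.8% lower (30% in either direction). With the series matrix values 32% of the calls of all genes were higher, against 64.1%, and 2 members were higher and 6 lower. With the slide as a block Mcm10 held its call (1.35 ± 0.38, adjusted p = 0.0448), while Tk1 (1.13 ± 0.35, adjusted p = 0.0598), Pcna (-0.20 ± 0.11, adjusted p = 0.315) and Tyms (-0.24 ± 0.26, adjusted p = 0.623) lost it. Mcm7 was newly called lower (-0.62 ± 0.17, adjusted p = 0.0389). Ccnf lost its call too (-1.48 ± 0.69, adjusted p = 0.208), as it did without most single arrays, and without ConA + BW245C 3 hr replicate 5 it stood at -0.88, adjusted p = 0.0647. With normexp background Ccnf stood at -0.54, adjusted p = 0.153, with the random slide block Tyms at -0.97, adjusted p = 0.101, and Pcna at -0.57 with the series matrix and -0.55 after quantile normalization.

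Other genes of the same pathways, in 7 lists written from general knowledge, are given beside the members, each set of counts with the shares called over all genes, near which several of them lie. At 24 hr after ConA with vehicle, relative to untreated livers, the numbers called higher and lower were 36 and 3 of 47 other mitotic genes, 19 and 9 of 37 other genes of origins and forks, 5 and 2 of 8 inhibitors of cyclin-dependent kinases, 6 and 2 of 12 other cyclins and their kinases, 9 and 7 of 19 E2F, pocket protein and DREAM factors, 10 and 1 of 16 checkpoint and stress genes and 17 and 4 of 24 regeneration signals (all genes 29.7% and 39.1%). The median was 1.30 for the other mitotic genes and 0.20 for those of origins and forks. The 4 genes of these lists with the smallest p were Socs3, a feedback inhibitor of cytokine signalling (4.15 ± 0.24, adjusted p = 5.53e-13), Cdkn1c, the inhibitor p57 (-1.83 ± 0.12, adjusted p = 2.96e-12), Il6, the cytokine interleukin 6 (5.23 ± 0.34, adjusted p = 4.42e-12) and Spc24, a kinetochore subunit of the Ndc80 complex (-2.71 ± 0.18, adjusted p = 4.89e-12). At 3 hr the numbers called higher and lower were 7 and 15 of 47 other mitotic genes, 2 and 25 of 37 other genes of origins and forks, 3 and 3 of 8 inhibitors of cyclin-dependent kinases, 2 and 6 of 12 other cyclins and their kinases, 6 and 5 of 19 E2F, pocket protein and DREAM factors, 11 and 1 of 16 checkpoint and stress genes and 18 and 2 of 24 regeneration signals (all genes 24.9% and 37%). The medians of the first 2 lists were -0.17 and -0.42. The smallest p belonged to Socs3, a feedback inhibitor of cytokine signalling (6.68 ± 0.24, adjusted p = 1.67e-16), Plk3, a stress-responsive polo-like kinase (3.65 ± 0.13, adjusted p = 3.26e-16), Jun, an AP-1 transcription factor (4.89 ± 0.18, adjusted p = 3.95e-16) and Btg2, an antiproliferative p53 target (5.61 ± 0.27, adjusted p = 3.63e-14). Between 3 and 24 hr with vehicle they were 38 and 5 of 47 other mitotic genes, 25 and 3 of 37 other genes of origins and forks, 4 and 1 of 8 inhibitors of cyclin-dependent kinases, 9 and 2 of 12 other cyclins and their kinases, 11 and 6 of 19 E2F, pocket protein and DREAM factors, 5 and 8 of 16 checkpoint and stress genes and 4 and 16 of 24 regeneration signals (all genes 33.2% and 35.3%), with medians of 1.34 and 0.79 for the first 2 lists. The smallest p belonged to Pold1, the catalytic subunit of polymerase delta (2.84 ± 0.11, adjusted p = 5.51e-15), Plk3, a stress-responsive polo-like kinase (-2.68 ± 0.13, adjusted p = 1.13e-13), Incenp, a chromosomal passenger complex subunit (2.94 ± 0.15, adjusted p = 1.52e-13) and Cdca8, borealin of the same complex (2.79 ± 0.16, adjusted p = 1.01e-12).

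With BW245C at 3 hr, relative to vehicle, the numbers called higher and lower were 0 and 9 of 47 other mitotic genes, 2 and 7 of 37 other genes of origins and forks, 1 and 0 of 8 inhibitors of cyclin-dependent kinases, 2 and 5 of 12 other cyclins and their kinases, 1 and 7 of 19 E2F, pocket protein and DREAM factors, 0 and 11 of 16 checkpoint and stress genes and 0 and 11 of 24 regeneration signals (all genes 11.7% and 16.8%). The smallest p belonged to Jun, an AP-1 transcription factor (-2.19 ± 0.18, adjusted p = 4.8e-08), Plk3, a stress-responsive polo-like kinase (-1.05 ± 0.13, adjusted p = 1.11e-05), E2f3, an E2F transcription factor (-0.85 ± 0.12, adjusted p = 3.46e-05) and Wee1, a kinase that holds back Cdk1 (-1.36 ± 0.20, adjusted p = 4.64e-05). At 24 hr they were 1 and 0 of 47 other mitotic genes, 2 and 0 of 37 other genes of origins and forks, 3 and 0 of 8 inhibitors of cyclin-dependent kinases, 0 and 0 of 12 other cyclins and their kinases, 2 and 3 of 19 E2F, pocket protein and DREAM factors, 0 and 6 of 16 checkpoint and stress genes and 2 and 9 of 24 regeneration signals (all genes 17.6% and 8.94%). The smallest p belonged to Socs3, a feedback inhibitor of cytokine signalling (-1.44 ± 0.24, adjusted p = 0.000133), Plk3, a stress-responsive polo-like kinase (-0.79 ± 0.13, adjusted p = 0.000189) and Cdkn1c, the inhibitor p57 (0.64 ± 0.12, adjusted p = 0.000324). The vehicle arrays of 24 hr are shared with the comparison against untreated livers, in which Cdkn1c had a difference of -1.83 ± 0.12, adjusted p = 2.96e-12. In the interaction they were 6 and 0 of 47 other mitotic genes, 5 and 1 of 37 other genes of origins and forks, 2 and 1 of 8 inhibitors of cyclin-dependent kinases, 2 and 2 of 12 other cyclins and their kinases, 3 and 2 of 19 E2F, pocket protein and DREAM factors, 1 and 1 of 16 checkpoint and stress genes and 2 and 1 of 24 regeneration signals (all genes 19.2% and 10.8%), and the smallest p belonged to Cebpa, a hepatocyte transcription factor (1.29 ± 0.20, adjusted p = 0.00015).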

How the data were processed

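Liver RNA of 25 mice, 5 per group, was measured on single-colour Agilent arrays. The deposited intensity values (processed signal) had been background-subtracted and detrended by Agilent Feature Extraction, version 10.7.3.1 per the file headers and 9.1 per the submitters' processing notes, on a design of build mm9. The series matrix, also deposited by the authors, holds the same intensity times 1 factor per array (SD of the log2 ratio at most 0.0032); its scaling rule is not given in the sources used here.

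For this report, log2 intensity was set relative to the 75th percentile of each array. Spots of a probe were averaged, probes were kept if well above background on at least 5 of 25 arrays, and the brightest probe stood for a gene. Of 55681 probes 26582 had a gene name through RefSeq accessions, and 15104 genes were tested. limma 3.58.1 in R 4.3.3 (lmFit, eBayes) fitted 1 mean per group over all arrays, with Benjamini-Hochberg adjustment and a threshold of 0.05. The method was tested on simulated data. These held no slide effects and no background floor, so they could not check the calls for either. Each array was taken as 1 mouse, so p-values weigh a difference against the spread between arrays within groups. A gene's spread was shared by all 5 groups, so arrays outside a comparison also enter its p-value. That spread can also hold slide differences, as every group but ConA + BW245C 3 hr lay on more than 1 slide. Precision is limited by how many arrays there are. A bound ("at least") sets the group mean against the lowest signal well above background on each array of the other group.

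The members and lists were chosen with earlier results of these data known. Named genes were the members called, first those of largest change per set, with at most the 4 genes of smallest p from the other lists in each comparison. Afmid and the other overlapping genes were picked for their position after their values were seen. A gene that this rule picks is not reported here. Alternatives were normexp background (offset 50, on median signals), quantile normalization, series matrix values, other probe filters, the mean of a gene's probes, a block for the slide (fixed or random), the replicate number as a block, only the groups compared, and leaving out each array. Replicate numbers did not pair the mice: 4 of 25 arrays correlated best with their own number, with a median correlation of deviations of -0.013. Matplotlib 3.10.9 drew the figures.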

Additional observations from a re-analysis of the deposited data

Results flagged for a closer look

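Of 180 combinations of a member and a group, 15 had 1 mouse far from the other 4. Its gap to the nearest mouse, divided by the range of the group, was above the 95% critical value of Dixon's test for 5 samples (0.71). Chance gives such a mouse in about 1 of 20 groups. In ConA + vehicle 3 hr livers replicate 1 was high for Ccnf (-2.91), Cdc20 (-1.35), Mki67 (0.76) and Cenpe (-2.23), and replicate 3 was high for Mcm2 (-1.02, the nearest being -2.46). In ConA + BW245C 3 hr livers replicate 4 was high for E2f1 (-0.014, the nearest being -1.78), replicate 5 was low for Mcm5 (-2.05) and Nusap1 (-6.51), and replicate 1 was high for Kif11 (-5.25), a probe above background on no array of that group. In ConA + vehicle 24 hr livers replicate 4 was low for Mcm10 (0.24). In untreated livers replicate 4 was low for Mcm4 (0.48) and high for Tyms (-1.80), replicate 1 was high for Ccne1 (-1.73) and Cdc20 (-1.65), and replicate 2 was high for Kif20a (-2.80). All of these are log2 levels.

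The BW245C effect differed between 24 and 3 hr by the interaction term for 5 members, by 1.29 for Mcm10, 1.09 for Tk1, -1.63 for Tyms, -1.32 for Ccnf and -0.34 for Pcna (24 hr minus 3 hr, log2).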

How the results depend on the processing

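Calls held under every alternative that tested the member for 14 of 22 members at 3 hr against untreated. They held for 29 of 31 at 24 hr and 29 of 34 between the times with vehicle. For BW245C they held for 0 of 4 at 3 hr, 3 of 5 at 24 hr (Tk1, Mcm10 and Tyms) and 1 of 5 in the interaction (Mcm10). A call held if it kept its sign and an adjusted p under 0.05, whatever its size. Members without a probe above background on all 25 arrays were absent from the fit limited to such probes. Normexp background turned the sign of Bub1b (0.018) and Kif20a (0.0052) at 3 hr and of Foxm1 between the times (-0.076); the cause was not tested. Between the times, quantile normalization, the series matrix, the random slide block and the fit of only the groups compared each left 1 member lower. Limiting the fit to probes above background on all 25 arrays, which drops dim genes by construction, left 16 members higher at 24 hr against untreated and 18 between the times. The shares over all genes in that fit are again not given. For BW245C at 3 hr, members higher numbered 0 with normexp, with probes above background on all arrays and with only the groups compared, and 3 with the series matrix. Members lower numbered 5 with quantile normalization and with the mean of probes, 1 with the series matrix, with probes above background on all arrays and with the random slide block, and 0 with the fixed slide block and with only the groups compared. Over all genes that comparison had 4316 calls, and 1769 with the fixed slide block, 2647 with the random one and 2190 with only the groups compared. In the interaction, members lower numbered 6 with the series matrix and 1 with either slide block, members higher 1 with the fixed block, and calls over all genes 4535, against 923 with the fixed and 2105 with the random block. The cause of these changes was not tested. Calls over all genes under the other alternatives of this paragraph are not given here. The member counts under them therefore cannot be set against a share of all genes.

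Leaving out 1 array gave 6 to 9 members higher and 12 to 15 lower at 3 hr against untreated (8750 to 9537 genes in all), 29 to 30 and 2 to 3 at 24 hr (9942 to 10547), 31 to 32 and 1 to 2 between the times (9942 to 10420), 1 to 3 and 1 to 6 for BW245C at 3 hr (3132 to 5409), 2 to 3 and 1 to 3 at 24 hr (2925 to 4339), and 2 to 5 and 2 to 6 in the interaction (3248 to 5352). With the replicate block, though the numbers share no pairing, members higher and lower numbered 9 and 13 at 3 hr against untreated, 29 and 2 at 24 hr, 32 and 2 between the times, 1 and 4 for BW245C at 3 hr, 2 and 3 at 24 hr, and 3 and 4 in the interaction. The shares over all genes with that block are not given here. Probes near background limit what the dim mitotic genes can show.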
